A study of Mus musculus with 9 samples.

Results

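Ddit4 and the mTORC1 pathway are described here through 10 genes, picked by symbol from the deposited count table of 13192 genes: the mTOR kinase gene Mtor and its partner Rptor, the activator Rheb, the inhibitors Ddit4, Tsc1, Tsc2, Deptor and Akt1s1, and the effectors Rps6kb1 and Eif4ebp1. All 10 were found. Ddit4 stands at the head of the set because it was chosen by its difference between the groups compared here, so its values are a description and carry no independent weight. The other 9 were selected on function, with earlier results of these data known.

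The libraries are RNA-seq of the heart apex of wild-type C57BL/6J males that received 1e+11 viral particles of an adeno-associated virus in the right gastrocnemius, a calf muscle, at an age of 10 weeks. AAV-Osm carried the gene of oncostatin M, a cytokine of the interleukin-6 family, and AAV-Null was the control vector; 4 AAV-Null and 5 AAV-Osm hearts, taken 12 weeks after injection, were analysed. The promoter that drives the transgene is not given in the sources used here, and Osm itself was not analysed here, so the delivered gene does not check the labels. Nothing in the labels states outright that each library is a separate mouse, so p-values reflect sample-to-sample spread, which may be technical.

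Total counts ran from 11841106 to 30625134 per library, none of the 36 pairs of libraries was identical (0 found), and all 8 heart muscle markers were present, their summed level being 89009 to 118913 CPM (TMM-scaled counts relative to library size) in AAV-Null hearts against 87401 to 115952 CPM in AAV-Osm hearts. Of other cell types, the 6 fibroblast markers summed to 1106 to 1847 CPM in AAV-Null hearts against 866 to 1621 CPM in AAV-Osm hearts, and the 7 liver markers to 6.92 to 169 CPM and 6.32 to 61.3 CPM. In bulk tissue, fewer cells of a type and less RNA per cell cannot be told apart. Libraries also differed within groups. By chi-square per degree of freedom between the counts of a pair, AAV-Null 1 and 2 were the closest (6.515). They were nearer to AAV-Osm 4 (17.27 and 18.56) than to AAV-Null 3 (62.92 and 64.53) or AAV-Null 4 (93.25 and 98.14). This measure grows with counts, and AAV-Osm 4 had the fewest. AAV-Osm 5 was also nearer to AAV-Null 1 and 2 (39.07 and 33.22) than AAV-Null 3 was. It had 19113143 counts against 18594875 in AAV-Null 1. AAV-Osm 2 and 3 were close to each other (9.68). The cause was not tested.

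The mTOR complex 1, mTORC1, is a protein kinase complex that drives protein synthesis and restrains autophagy when growth factors, amino acids and energy are plentiful. Growth factor signals reach it through AKT, which inactivates the TSC1-TSC2 complex and so frees the small GTPase RHEB to activate the kinase. DDIT4, also called REDD1, acts against this, as the protein restores TSC1-TSC2 function. Signals that induce its transcription include hypoxia, glucocorticoids, energy stress and endoplasmic reticulum stress. In heart and skeletal muscle the pathway is known for its part in growth and atrophy. Most of its regulation is by phosphorylation, which transcript counts do not measure.

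In these hearts the transcript of the inhibitor Ddit4 was about 2.23-fold lower with AAV-Osm, while the 9 other members had fold changes near 1 and overlapping groups. The core of the pathway, Mtor, Rptor, Rheb, Tsc1 and Tsc2, had log2 fold changes between -0.09 and 0.22, and the effectors Rps6kb1 and Eif4ebp1 were at -0.02 and 0.08. Of the 10 members, 1 passed the edgeR threshold of an adjusted p under 0.05, the one that the choice rested on, beside 0.121% of all genes tested. The groups did not overlap for that member alone (1 of 10), beside 2.28% of all genes. Because Ddit4 was chosen by this contrast, nothing is read from these counts.

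Ddit4 (mm10, chromosome 10, 59949675 to 59951770, minus strand, 3 exons, 1685 bases of exon) is a protein-coding gene with no exonic overlap with a neighbour in GENCODE M21. Its levels were 51.9, 60.6, 45.5 and 82.4 CPM in AAV-Null 1 to 4 and 27.0, 24.8, 30.1, 34.0 and 19.4 CPM in AAV-Osm 1 to 5. Every AAV-Osm library lay below the lowest control, AAV-Null 3, and AAV-Null 4 stood highest. The counts behind these levels ran from 390 in AAV-Osm 4 to 1684 in AAV-Null 4.

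Mean Ddit4 was 60.1 ± 16.1 CPM (SD, n = 4) in AAV-Null and 27.1 ± 5.49 CPM (SD, n = 5) in AAV-Osm, a log2 fold change of -1.15 (standard error 0.19, 95% interval -1.57 to -0.73), with the 15th smallest p of the table. The groups stayed apart under every scaling tried, TMM, DESeq2 size factors, upper-quartile factors and total counts, the lowest AAV-Null value being 45.2 to 46.0 CPM and the highest AAV-Osm value 32.9 to 34.0 CPM. The adjusted p that put Ddit4 among the called genes was 0.0427 in edgeR, close to the threshold. It exceeded the threshold without AAV-Null 1, 2 or 4 or any 1 of AAV-Osm 1 to 5, reaching up to 0.167, while the log2 fold change stayed between -1.27 and -0.96; without AAV-Null 3 it was 0.0413. With the 2 libraries at the extremes, AAV-Null 4 and AAV-Osm 5, both left out, the log2 fold change was -0.87 (standard error 0.16, edgeR adjusted p = 0.0797).

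**Figure D1:**
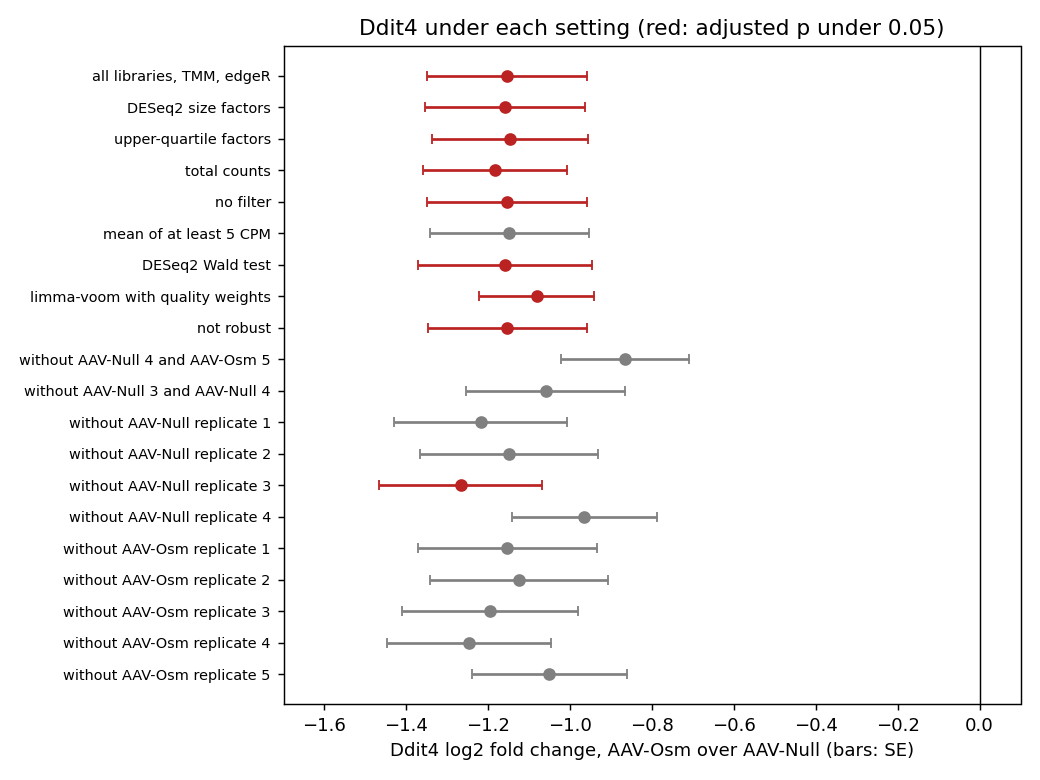
Log2 fold change of Ddit4, AAV-Osm over AAV-Null, on the horizontal axis, for each setting on the vertical axis; points are estimates, bars their standard errors, and red marks an adjusted p under 0.05. All estimates lie between -1.27 and -0.87, and most of those with a library left out are grey.

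Within each group, Ddit4 was highest in the library with the most fibroblast marker RNA, AAV-Null 4 (82.4 CPM, marker sum 1847 CPM) and AAV-Osm 4 (34.0 CPM, marker sum 1621 CPM). AAV-Null 4 was also the highest control for heart muscle (118913 CPM), endothelial (581 CPM), macrophage (431 CPM), red blood cell and adipocyte markers. AAV-Osm 4 was not the highest of its group for these. Between the groups the order differed: AAV-Osm 4, with the larger fibroblast sum, had less Ddit4 than AAV-Null 3 (45.5 CPM), whose sum was 1106 CPM. The part of tissue makeup in the level of Ddit4 was not tested. All 6 fibroblast markers had negative log2 fold changes (median -0.23), 0 of them past the threshold. So had all 7 liver markers (median -1.52, 0 past the threshold), whose summed level was largest in AAV-Null 3 (169 CPM), then AAV-Null 4 (94.2 CPM), and without these libraries the Ddit4 log2 fold change was -1.06 (standard error 0.20, edgeR adjusted p = 0.0849).

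Ddit4 has a close relative, Ddit4l (REDD2), which also inhibits mTORC1. Ddit4l was measured at a low level, with 23 to 53 counts per library. It was at 1.5, 2.18, 1.74 and 1.76 CPM in AAV-Null 1 to 4 and 0.996, 1.25, 2.37, 2.09 and 1.76 CPM in AAV-Osm 1 to 5, with overlapping groups. Its log2 fold change was -0.11 (standard error 0.27, 95% interval -0.70 to 0.48, edgeR adjusted p = 0.985), so a change of the size seen for Ddit4 lay outside the interval. The log2 ratio of Ddit4 to Ddit4l within a library averaged 4.97 ± 0.376 (SD, n = 4) in AAV-Null and 3.96 ± 0.489 (SD, n = 5) in AAV-Osm. The scaling factor enters this ratio only through the prior count, a small count added before the log, here 2. The difference of -1.0 is a description, since it rests on Ddit4. It was -0.996 with a prior count of 0 and -1.014 with 5. With the prior count of 2, the lowest AAV-Null ratio equalled the highest AAV-Osm ratio to 2 decimals (4.63).

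The promoters of Ddit4 and Ddit4l are shown to set the paralogs side by side, and that of Rptor because it holds the same hypoxia core letters as Ddit4. They come from RefSeq on GRCm38.p6 (the assembly behind mm10), 5′ to 3′ on the gene's strand, as windows of 250 bases before the first base that RefSeq gives the gene. Stretches within a GENCODE M21 exon were cut away, which left 186 bases for Ddit4, ending where its GENCODE gene begins. Capitals mark matches to the motifs named below. Ddit4 is at chr10:59951835-59952020 (minus strand), Ddit4l at chr3:137623422-137623671 (plus strand) and Rptor at chr11:119602655-119602904 (plus strand). The Ddit4l window lies before its RefSeq start but inside its GENCODE gene, in an intron of a transcript that begins further upstream, at 137621612.
Ddit4: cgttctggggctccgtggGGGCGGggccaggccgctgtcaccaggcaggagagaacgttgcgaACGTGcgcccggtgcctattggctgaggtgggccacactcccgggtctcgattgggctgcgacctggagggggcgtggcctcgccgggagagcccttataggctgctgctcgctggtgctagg
Ddit4l: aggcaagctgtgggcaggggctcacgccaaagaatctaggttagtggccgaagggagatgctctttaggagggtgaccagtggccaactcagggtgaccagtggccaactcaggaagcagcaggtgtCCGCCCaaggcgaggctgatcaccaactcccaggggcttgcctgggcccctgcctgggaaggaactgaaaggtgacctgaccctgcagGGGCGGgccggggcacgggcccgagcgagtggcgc
Rptor: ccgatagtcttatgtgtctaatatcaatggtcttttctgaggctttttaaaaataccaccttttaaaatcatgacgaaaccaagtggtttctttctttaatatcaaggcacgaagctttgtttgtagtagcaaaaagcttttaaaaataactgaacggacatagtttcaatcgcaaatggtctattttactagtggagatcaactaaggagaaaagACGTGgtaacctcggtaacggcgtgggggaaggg

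Of the 10 members, 8 were matched to a RefSeq promoter, and Deptor and Eif4ebp1 were not. The 250 bases before each start were searched on both strands. The letters searched for hypoxia-inducible factors were ACGTG, which also lie within those of the E-box, CACGTG. For the glucocorticoid receptor the half-site AGAACA was searched. The element of ATF4 and C/EBP factors was written TGATGNAA and the element of STAT factors TTCNNNGAA, with N for any base. The GC box was searched as GGGCGG and the TATA box as TATAAA. In Ddit4 they gave 1 hypoxia core, starting 187 bases before the RefSeq start, and 1 GC box at 232 bases. These distances do not run to the end of the printed stretch, which stops at the GENCODE exon. The hypoxia core stands in 16.7% of 32536 promoters and the GC box in 33.0%. Ddit4 held no match (0) to the glucocorticoid half-site, present in 16% of promoters, the ATF4 and C/EBP element (3.4%), the STAT element (7.0%), the TATA box (12.3%) or the E-box (6.0%). Among the other members the hypoxia core was in Rptor and Rheb, the STAT element in Mtor and the glucocorticoid half-site in Rps6kb1. In Rheb the hypoxia core lay within an E-box starting 96 bases before the start. For Mtor and Rps6kb1 the bases just after the RefSeq start were not found in a GENCODE M21 transcript of the gene. These matches describe the letters of this window only.

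The TSC complex, which DDIT4 acts through, was measured by both of its core genes. Tsc1 (chromosome 2, 28641233 to 28691172, plus strand), the scaffold subunit, was at 29.3, 29.9, 21.3 and 22.5 CPM in AAV-Null 1 to 4 and 25.5, 25.6, 26.3, 30.2 and 28.5 CPM in AAV-Osm 1 to 5. Its AAV-Osm values lay inside or just beyond the control range, with a difference on the log2 scale of 0.08 (standard error 0.14, 95% interval -0.23 to 0.38, edgeR adjusted p = 0.978).

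Tsc2 (chromosome 17, 24595816 to 24632627, minus strand), the subunit that switches RHEB off, was at 94.5, 94.0, 110 and 119 CPM in AAV-Null 1 to 4 and 99.7, 134, 151, 105 and 105 CPM in AAV-Osm 1 to 5. AAV-Osm 2 and 3 lay above all controls and the other 3 within the control range. On the log2 scale the difference was 0.19 (standard error 0.15, 95% interval -0.15 to 0.52, edgeR adjusted p = 0.945). Its exons share 693 bases (10.8% of its exon length) with Pkd1 on the opposite strand, and the strand setting of the counting is not given in the sources used here, so its counts are uncertain. Of the other members, Deptor, Akt1s1, Rptor and Rps6kb1 share 0.19% to 3.49% of their exon length with a neighbour. The log2 ratio of Tsc2 to Tsc1 averaged 2.02 ± 0.412 (SD, n = 4) and 2.11 ± 0.323 (SD, n = 5), with a difference of 0.08 (exact two-sided permutation p = 0.714, adjusted p = 0.714 over 4 ratios, smallest possible p 0.00794).

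Rheb (chromosome 5, 24802823 to 24842361, minus strand), the GTPase that TSC2 restrains, was the most variable member. It was at 76.4, 81.3, 55.0 and 40.6 CPM in AAV-Null 1 to 4 and 62.9, 41.7, 37.0, 64.3 and 91.0 CPM in AAV-Osm 1 to 5. Both groups spanned nearly the same range, with coefficients of variation of 29.9% and 36.2%. On the log2 scale the difference was -0.09 (standard error 0.26, 95% interval -0.66 to 0.48, edgeR adjusted p = 0.987). It was -0.58 with limma-voom and quality weights, -0.46 once AAV-Null 4 and AAV-Osm 5 were dropped, and -0.41 when AAV-Null 3 and 4 were removed, none past the threshold. The 3 libraries with the least Rheb, AAV-Osm 3, AAV-Null 4 and AAV-Osm 2, had heart muscle marker sums of 112939, 118913 and 115952 CPM. AAV-Osm 4 had a like sum of 113559 CPM with 64.3 CPM of Rheb, and the other 5 libraries had sums of 87401 to 100911 CPM. The part of tissue makeup in the level of Rheb was not tested.

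The kinase and its scaffold were measured at lower levels per length. Mtor (chromosome 4, 148448582 to 148557685, plus strand, 58 exons), which encodes the kinase itself, was at 42.8, 36.6, 37.4 and 34.3 CPM in AAV-Null 1 to 4 and 44.6, 45.8, 50.8, 39.3 and 39.5 CPM in AAV-Osm 1 to 5. AAV-Osm 1, 2 and 3 lay above all controls, while AAV-Osm 4 and 5 lay below AAV-Null 1. Its log2 fold change of 0.22 (standard error 0.13, 95% interval -0.06 to 0.50, edgeR adjusted p = 0.909) had the smallest p of the 9 members other than Ddit4. Its direction was kept in all 19 alternatives, at 0.15 to 0.29, and it passed in none of them (0 of 19).

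Rptor (chromosome 11, 119602905 to 119899591, plus strand), which encodes raptor, the subunit that recruits substrates, was at 28.3, 29.1, 29.3 and 20.3 CPM in AAV-Null 1 to 4 and 26.6, 25.5, 31.2, 27.9 and 28.3 CPM in AAV-Osm 1 to 5. AAV-Null 4 stood below the other 8 libraries. The log2 fold change was 0.06 (standard error 0.14, 95% interval -0.24 to 0.36, edgeR adjusted p = 0.985) and -0.05 without that library. Rictor, which takes the place of raptor in the second mTOR complex, was at 5.01, 5.02, 3.22 and 1.03 CPM in AAV-Null 1 to 4 and 3.67, 3.38, 2.88, 4.09 and 6.50 CPM in AAV-Osm 1 to 5. The log2 ratio of Rptor to Rictor was 3.08 ± 0.798 (SD, n = 4) and 2.79 ± 0.461 (SD, n = 5), a difference of -0.29 (exact two-sided permutation p = 0.532, adjusted p = 0.714), which became 0.08 without AAV-Null 4.

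**Figure D2:**
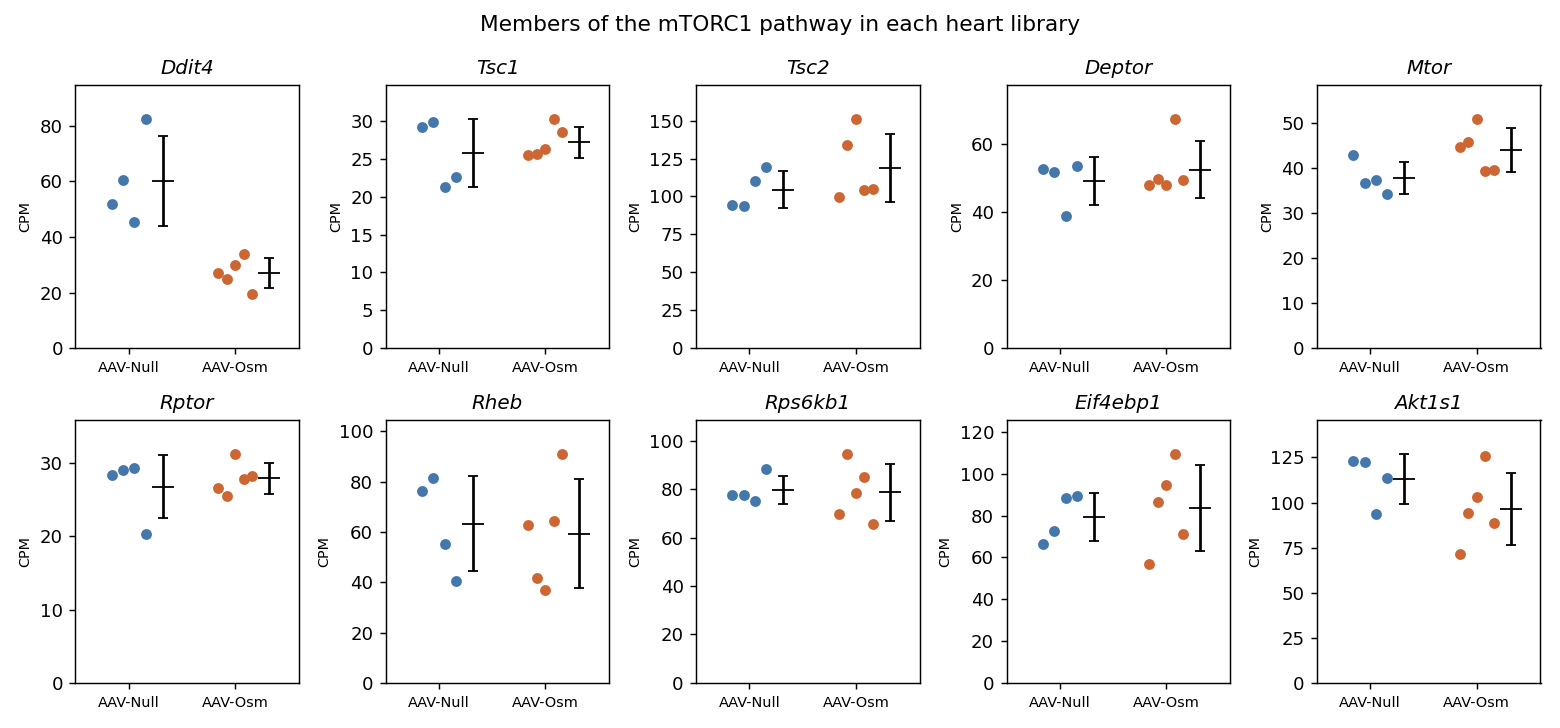
Level of each member in CPM (vertical axes, from 0) in the 4 AAV-Null and 5 AAV-Osm libraries; points are libraries and the black marks are the mean and SD. Ddit4 is the panel with separated groups (AAV-Null 45.5 to 82.4 CPM, AAV-Osm 19.4 to 34.0 CPM), and in the other 9 panels the groups overlap.

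The 2 inhibitory partners of the kinase complex were compared next. Deptor (chromosome 15, 55112317 to 55259273, plus strand), which binds and inhibits mTOR, was at 52.7, 51.9, 38.7 and 53.7 CPM in AAV-Null 1 to 4 and 47.9, 49.7, 48.0, 67.3 and 49.5 CPM in AAV-Osm 1 to 5. AAV-Null 3 stood low and AAV-Osm 4 high, with the other 7 libraries between 47.9 and 53.7 CPM. The log2 fold change was 0.09 (standard error 0.15, 95% interval -0.23 to 0.41, edgeR adjusted p = 0.977), and it was -0.01 with either of these libraries left out. The log2 ratio of Deptor to Mtor, an inhibitor over its target, was 0.38 ± 0.259 (SD, n = 4) and 0.25 ± 0.329 (SD, n = 5), a difference of -0.13 (exact two-sided permutation p = 0.532, adjusted p = 0.714).

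Akt1s1 (chromosome 7, 44849224 to 44855421, plus strand) encodes PRAS40, which blocks substrate access to raptor until AKT phosphorylates it. Its levels were 123, 123, 93.6 and 114 CPM in AAV-Null 1 to 4 and 71.2, 94.2, 103, 126 and 88.8 CPM in AAV-Osm 1 to 5. AAV-Osm 1 and 5 lay below all controls and AAV-Osm 4 above them. The log2 fold change of -0.23 (standard error 0.16, 95% interval -0.58 to 0.12, edgeR adjusted p = 0.934) had the same sign in all 19 alternatives, at -0.35 to -0.14, and passed in none of them (0 of 19).

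Among effectors, Rps6kb1 (chromosome 11, 86499011 to 86544807, minus strand) encodes the S6 kinase that mTORC1 activates. It was at 77.5, 77.7, 75.3 and 88.4 CPM in AAV-Null 1 to 4 and 69.7, 94.6, 78.3, 85.1 and 65.7 CPM in AAV-Osm 1 to 5, the AAV-Osm libraries lying on both sides of the controls. The log2 fold change was -0.02 (standard error 0.14, 95% interval -0.31 to 0.27, edgeR adjusted p = 0.997). Its paralog Rps6kb2 had one of 0.09 (standard error 0.15, edgeR adjusted p = 0.977), at 17.1 ± 0.827 CPM (SD, n = 4) and 18.2 ± 3.02 CPM (SD, n = 5).

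Eif4ebp1 (chromosome 8, 27260327 to 27275656, plus strand) encodes the translation repressor that releases the cap-binding protein eIF4E once mTORC1 phosphorylates it. It was at 66.5, 72.8, 88.6 and 89.3 CPM in AAV-Null 1 to 4 and 56.8, 86.4, 94.8, 109 and 71.2 CPM in AAV-Osm 1 to 5. AAV-Osm 3 and 4 lay above the controls and AAV-Osm 1 below them. The log2 fold change was 0.08 (standard error 0.18, 95% interval -0.32 to 0.47, edgeR adjusted p = 0.985). The paralog Eif4ebp2 had one of -0.20 (standard error 0.15, edgeR adjusted p = 0.934) at 10.3 ± 0.897 and 8.93 ± 1.07 CPM (SD, n = 4 and 5). The log2 ratio of Eif4ebp1 to Rps6kb1 was -0.02 ± 0.192 (SD, n = 4) and 0.07 ± 0.275 (SD, n = 5), a difference of 0.08 (exact two-sided permutation p = 0.611, adjusted p = 0.714).

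**Figure D3:**
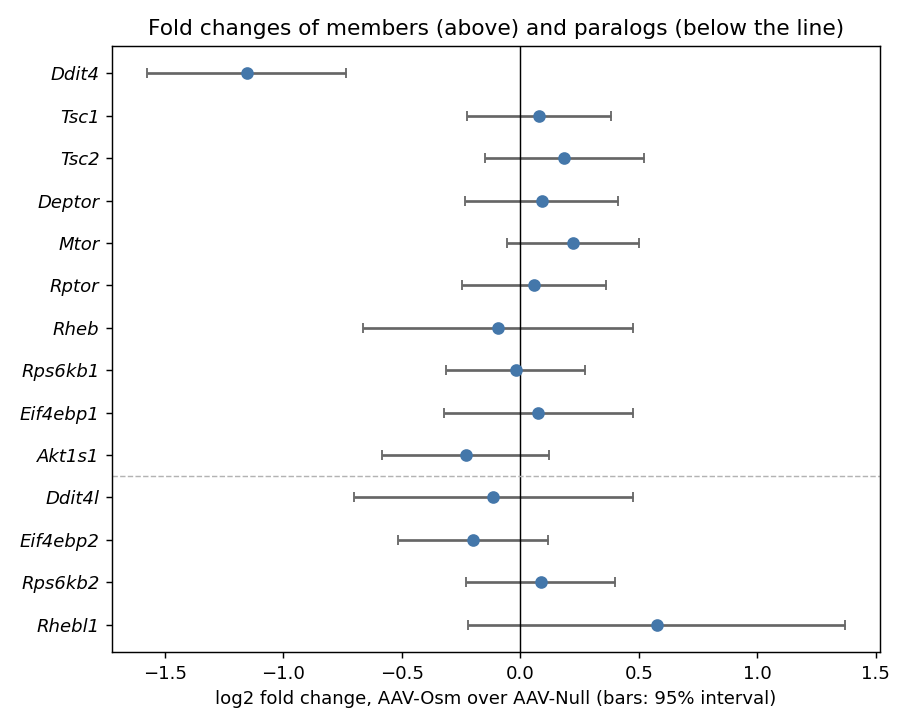
Log2 fold change of AAV-Osm over AAV-Null (horizontal axis) with its 95% interval for the 10 members and, below the dashed line, 4 paralogs. The interval of Ddit4, the gene chosen by this contrast, runs from -1.57 to -0.73, and the intervals of the other members and of the paralogs include 0.

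The 9 members other than Ddit4 had edgeR adjusted p from 0.909 to 0.997, 6 with a positive and 3 with a negative log2 fold change. Their 95% intervals lay between -0.66 and 0.52 on the log2 scale. The median log2 fold change over the 10 members was 0.07, beside 0.01 over all genes, of which 6846 were positive and 6346 negative. A p above the threshold does not show that a gene was the same in both groups; the intervals give the changes that these samples leave possible.

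Levels of different genes were compared per kilobase of exon. In AAV-Null hearts the order ran from Eif4ebp1 at 80.8 ± 11.7, Akt1s1 at 50.2 ± 6.09, Rheb at 41.7 ± 12.5, Ddit4 at 35.7 ± 9.54, Tsc2 at 16.2 ± 1.92 and Rps6kb1 at 10.1 ± 0.745 to Deptor at 5.68 ± 0.813, Mtor at 4.39 ± 0.421, Rptor at 3.81 ± 0.615 and Tsc1 at 3.34 ± 0.579 CPM per kilobase (SD, n = 4). Short transcripts of inhibitors, the activator and the effector Eif4ebp1 stood above the long transcripts of the kinase complex. Neighbours whose ranges over libraries overlapped were Akt1s1 and Rheb, Rheb and Ddit4, Deptor and Mtor, Mtor and Rptor, and Rptor and Tsc1. Ddit4 lay above Tsc2 without overlap in AAV-Null (27.0 to 48.9 against 14.6 to 18.5 CPM per kilobase), whereas in AAV-Osm it was at 16.1 ± 3.26 CPM per kilobase (SD, n = 5), below the mean of Tsc2 (18.5 ± 3.49) and within its spread.

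**Figure D4:**
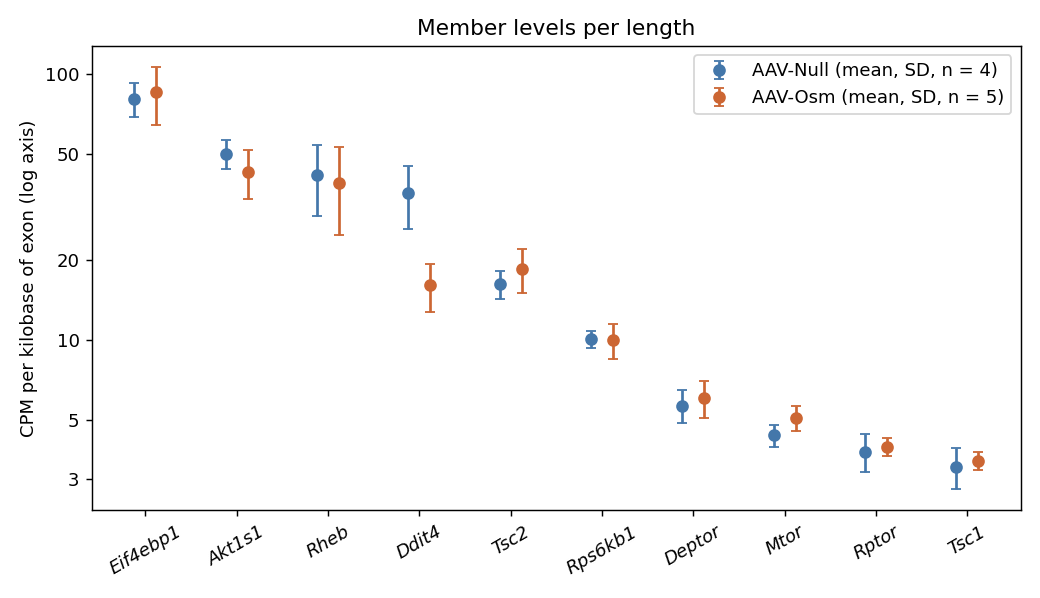
Mean level per length (CPM per kilobase of exon, log axis) of each member in AAV-Null and AAV-Osm hearts with SD. From Eif4ebp1 (80.8 and 85.3) to Tsc1 (3.34 and 3.53) the order is alike in both groups except that Ddit4 moves from the fourth to the fifth place.

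The wider pathway was described with lists of genes. Most genes named from these lists were picked by a small p in this contrast, so separate groups among them follow in part from that choice. Over all genes 2.28% had groups that did not overlap, and 6846 log2 fold changes were positive and 6346 negative. The counts of signs given for lists were not tested. Of 9 partners of the mTOR complexes 0 passed in either direction (median log2 fold change -0.04). Tti2, a chaperone subunit for mTOR and related kinases, was at 8.16 ± 0.297 CPM (SD, n = 4) and 10.4 ± 0.875 CPM (SD, n = 5) without overlap (log2 fold change 0.36, standard error 0.14, edgeR adjusted p = 0.718), and Prr5, a subunit of the second complex, had a log2 fold change of -0.48 (standard error 0.29, edgeR adjusted p = 0.916). Of 6 relatives of the TSC and Rheb module 0 passed (median 0.08). Btrc, which encodes a ubiquitin ligase subunit, was at 0.21 (standard error 0.13, edgeR adjusted p = 0.927), also without overlap between groups. Rhebl1, the paralog of Rheb, was at 0.57 (standard error 0.37, edgeR adjusted p = 0.927) on levels of 0.971 ± 0.40 and 1.47 ± 0.692 CPM.

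The amino acid branch, by which RAG GTPases bring mTORC1 to the lysosome, had 30 genes tested and 0 passed (median 0.10, 23 positive and 7 negative). Rragb and Rragd, both RAG GTPase genes, had log2 fold changes of 0.58 (standard error 0.25, edgeR adjusted p = 0.796) and 0.37 (standard error 0.17, edgeR adjusted p = 0.832). For Rragb the groups did not overlap, at 1.14 ± 0.275 CPM (SD, n = 4) and 1.73 ± 0.297 CPM (SD, n = 5).

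In the insulin and AKT branch 0 of 19 genes passed (median 0.02). Pik3ip1, an inhibitor of the PI3-kinase upstream of AKT, had the smallest p there: it was at 40.8, 42.6, 38.3 and 29.5 CPM in AAV-Null 1 to 4 and 46.4, 51.5, 60.8, 70.3 and 70.9 CPM in AAV-Osm 1 to 5. All AAV-Osm libraries lay above the controls, with a log2 fold change of 0.66 (standard error 0.17, edgeR adjusted p = 0.364). Insr, the insulin receptor gene, also did not overlap between groups, at 75.3 ± 9.98 CPM (SD, n = 4) and 99.0 ± 9.11 CPM (SD, n = 5), with a log2 fold change of 0.39 (standard error 0.13, edgeR adjusted p = 0.622).

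AMP-activated kinase, the energy sensor that restrains mTORC1, had 11 subunit and regulator genes tested and 0 passed (median 0.07). Prkab1 and Prkag2 had log2 fold changes of 0.33 (standard error 0.17, edgeR adjusted p = 0.883) and 0.15 (standard error 0.16, edgeR adjusted p = 0.961). Of 24 translation and autophagy effectors 0 passed (median 0.09, 18 positive and 6 negative). Pdcd4, a repressor of the helicase eIF4A, had a log2 fold change of 0.32 (standard error 0.14, edgeR adjusted p = 0.796), and Eef2k, the kinase of elongation factor 2, one of 0.28 (standard error 0.13, edgeR adjusted p = 0.802).

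Target genes of transcription factors that mTORC1 activates were also counted. Of 29 ATF4 target genes 0 passed (median -0.01), with Mthfd1l at 1.01 (standard error 0.35, edgeR adjusted p = 0.644) on levels under 1.04 CPM, and Ddit3, the stress factor CHOP, at -0.29 (standard error 0.15, edgeR adjusted p = 0.883). Of 26 SREBP targets, genes of lipid synthesis, 0 passed (median -0.05). Scd1, a fatty acid desaturase, was at 10.6 ± 3.01 CPM (SD, n = 4) and 7.01 ± 1.55 CPM (SD, n = 5) without overlap between groups, with a log2 fold change of -0.61 (standard error 0.22, edgeR adjusted p = 0.689).

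Hypoxia and glucocorticoid genes, from programmes known to induce Ddit4, were set beside it. Other programmes that induce Ddit4 have no list as inducers here. Of 24 hypoxia genes 0 passed (median 0.09). Pfkfb3, a regulator of glycolysis, did not overlap between groups at 3.16 ± 0.532 CPM (SD, n = 4) and 5.41 ± 1.44 CPM (SD, n = 5), with a log2 fold change of 0.79 (standard error 0.22, edgeR adjusted p = 0.487), the opposite sign to Ddit4. P4ha1, a collagen prolyl hydroxylase subunit, had the same sign, -0.53 (standard error 0.16, edgeR adjusted p = 0.552). Hif1a, the hypoxia factor gene, had a log2 fold change of 0.40 (standard error 0.27, edgeR adjusted p = 0.934).

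Of 23 glucocorticoid-responsive genes 1 rose, 1 fell and 21 did not pass (median -0.06, 9 positive and 14 negative), beside 0.121% of all genes past the threshold. The list was drawn up with earlier results of these data known, so these calls carry no independent weight. Whether glucocorticoids had a part in them was not tested. Angptl4, whose product inhibits lipoprotein lipase, rose (log2 fold change 2.10, standard error 0.34, edgeR adjusted p = 0.0369), and Cdkn1a, the cell cycle inhibitor p21, fell (-1.23, standard error 0.19, edgeR adjusted p = 0.0331). Cdkn1a was at 59.7, 69.2, 46.3 and 64.3 CPM in AAV-Null 1 to 4 and 21.6, 19.6, 26.0, 37.4 and 23.7 CPM in AAV-Osm 1 to 5. As for Ddit4, AAV-Null 3 was the lowest control and AAV-Osm 4 the highest of its group. The other extremes differed. The highest control was AAV-Null 2 for Cdkn1a and AAV-Null 4 for Ddit4. The lowest AAV-Osm library was AAV-Osm 2 for Cdkn1a and AAV-Osm 5 for Ddit4. Per1, a clock gene that glucocorticoids induce, was higher in all 5 AAV-Osm libraries than in any control (0.61, standard error 0.13, edgeR adjusted p = 0.171), and Errfi1 was at -0.68 (standard error 0.19, edgeR adjusted p = 0.487). Nr3c1, the gene of the receptor itself, had a log2 fold change of -0.06 (standard error 0.15, edgeR adjusted p = 0.986).

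The counts of genes past the threshold moved with the test. At an unadjusted edgeR p under 0.05 there were 1 of the complex partners, 0 of the TSC and Rheb relatives, 2 in the amino acid branch, 2 in the insulin and AKT branch, 0 of the AMP-activated kinase genes and 2 effectors. Of the target programmes, 1 ATF4, 2 SREBP, 3 hypoxia and 6 glucocorticoid genes were at such a p. Over all genes the share at such a p was 5.97%, and it was 25.2% with limma-voom and quality weights. That test put 7 of the 30 genes of the amino acid branch there in place of 2, and 4 of the 10 members in place of 1. DESeq2 (0.402% of all genes past an adjusted p of 0.05) also called Pik3ip1 and Per1 higher, and limma-voom (1.29% of all genes) also called Per1 and Fbxo32 higher and P4ha1 and Errfi1 lower, while both tests called 0 genes in the other 7 lists. Fbxo32, the atrophy-linked ubiquitin ligase atrogin-1, was chosen after these calls were seen. Both tests called Ddit4 lower and 0 of the 9 other members. With limma-voom the log2 fold change was 0.36 for Tsc2 (standard error 0.12, limma-voom adjusted p = 0.113) and -0.32 for Akt1s1 (standard error 0.13, limma-voom adjusted p = 0.152).

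**Figure D5:**
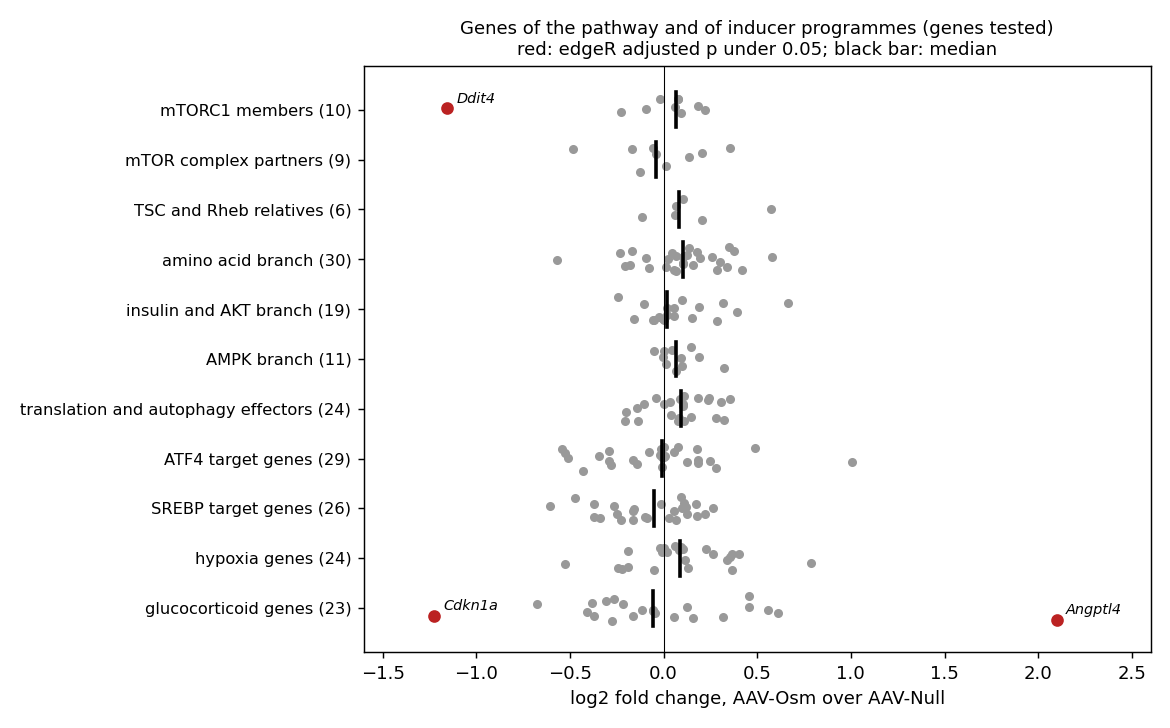
Log2 fold change of AAV-Osm over AAV-Null (horizontal axis) for each gene of the members and of 10 lists, with the number tested in brackets; grey points did not pass, red points had an edgeR adjusted p under 0.05 and black bars are medians. Only Ddit4, Cdkn1a and Angptl4 are red, and the medians lie between -0.06 and 0.10.

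Genes with a pattern like that of Ddit4 were ranked by Pearson's r of log2 CPM over the 9 libraries, among 12195 other genes with a mean of at least 1 CPM. The highest were Csk (r = 0.960), Plekhf1 (0.954), Abcb1b (0.948), Phlda3 (0.947) and Ccnd1 (0.945). Their log2 fold changes were -0.29, -0.64, -0.57, -0.76 and -0.46, and 0 of these 5 passed in edgeR (adjusted p 0.147 to 0.788). These values describe 9 libraries that share the group difference of Ddit4. Once each group's mean was subtracted, the highest were Islr2 (0.972), Clec1a (0.961), Tmem104 (0.957), Col1a2 (0.950) and Col6a6 (0.944), and 0 genes stood among both sets of 5. By Spearman's rho on log2 CPM, Csk was again first (rho = 1), and it was the 1 gene shared with the first set of 5. After subtraction Csk was also first by rho (rho = 1), although absent from the second set by Pearson's r, and 3 genes were shared with that set. Among the members, r with Ddit4 after subtraction ran from -0.51 for Rptor to 0.64 for Deptor.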

How the data were processed

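RNA of 9 heart apex samples was sequenced, and the authors deposited unnormalized whole-number counts for each gene, with totals of 11841106 to 30625134. Per the submitters' processing notes, the authors used STAR 2.5.2b, featureCounts and Subread 1.5.1 with mm10; no label or file header names the annotation, the strand setting or how multi-mapped reads were treated. The deposited table also gives each gene's summed exon length in bases (column Length), per the file headers, and 4141 blank lines were left out.

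AAV-Osm and AAV-Null, grouped by the labels' treatment, were compared with edgeR 4.0.16 in R 4.3.3 (TMM factors, robust two-sided quasi-likelihood F test, group as the only term, Benjamini-Hochberg adjustment over all 13192 genes, threshold 0.05). filterByExpr removed 0 genes. SE is the log2 fold change over the square root of F. Alternatives were DESeq2 1.42.0, limma-voom 3.58.1 with quality weights, other scalings and filters, non-robust dispersions, and libraries left out. Ratios within libraries used log2 CPM (prior count 2) and an exact permutation test. Replicate numbers only name samples and pair none.

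The members and lists were chosen with earlier results of these data known. Named genes are the members, their paralogs, and of each list those past the threshold plus the 2 next by p, of which 1 is not reported here; Rictor came with its ratio, and Hif1a, Nr3c1, Fbxo32 and Sesn1 were named after their values were seen. Lists of red blood cell, skeletal muscle, adipocyte, endothelial, macrophage and smooth muscle markers were also summed; no gene of these, 1, 4, 2, 6, 6 and 6 measured, passed (0).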

Additional observations from a re-analysis of the deposited data

Results flagged for a closer look

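In 20 sets of values, 10 members in each of 2 groups, a library was marked where its gap to the nearest other library exceeded Dixon's 95% critical share of the group's range; chance marks about 1 in 20, and 3 were marked. Deptor stood low in AAV-Null 3, at 38.7 CPM with the next at 51.9 CPM, and high in AAV-Osm 4, at 67.3 CPM with the next at 49.7 CPM. Rptor stood low in AAV-Null 4, at 20.3 CPM with the next at 28.3 CPM. Ddit4 was marked in neither group.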

How the results depend on the processing

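The Ddit4 log2 fold change was negative in all 19 alternatives and past the threshold in 8. The fit without a filter, counted among the 19 for every member and among these 8, repeats the main fit, because filterByExpr removed 0 genes. The call was lost with genes under a mean of 5 CPM removed (-1.15), once AAV-Null 4 and AAV-Osm 5 were dropped (-0.87) and with AAV-Null 3 and 4 left out (-1.06), so that 0 members passed in each, and in 8 of the 9 fits that left out 1 library (-1.27 to -0.96; 0 to 1 members passed). Over all genes 16 passed, 5 with the mean of 5 CPM, 53 in DESeq2, 170 with limma-voom and quality weights, and 4 to 11 with 1 library left out; the cause was not tested. Mtor, Tsc2 and Akt1s1 kept their sign in all 19 alternatives. Signs turned, at no point past the threshold, for Rps6kb1 (0.077 with limma-voom, 0.092 and 0.020 without those pairs of libraries, -0.094 to 0.043 with 1 left out), Rptor (-0.042, -0.058, -0.042, and -0.052 to 0.11), Tsc1 (-0.090 with limma-voom, -0.12 without the second pair, -0.0030 to 0.16 with 1 left out), and with 1 library left out for Deptor (-0.014 to 0.13), Eif4ebp1 (-0.038 to 0.19), Rheb (-0.30 to 0.051), the ratio of Rptor to Rictor (-0.49 to 0.077) and that of Tsc2 to Tsc1 (-0.043 to 0.21). Low counts per library limit Mthfd1l (5 to 26), Rhebl1 (14 to 37), Rragb (15 to 40), Ddit4l (23 to 53) and Rictor (21 to 137).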

Other observations

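Several regulators around the pathway spread widely between libraries of 1 group. Rictor, of the second mTOR complex, was lowest in AAV-Null 4 (1.03 CPM) and highest in AAV-Osm 5 (6.50 CPM), from 21 and 137 counts. Hif1a was also lowest in AAV-Null 4 (13.5 CPM) and highest in AAV-Osm 5 (40.0 CPM), as was Sesn1, a sestrin gene of the amino acid branch (34.5 and 78.8 CPM). Rheb was highest in AAV-Osm 5 as well (91.0 CPM), while Ddit4 was highest in AAV-Null 4 (82.4 CPM) and lowest in AAV-Osm 5 (19.4 CPM). These genes were picked after their values were seen.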
